A study of Mus musculus with 8 samples.

Results

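The 10 genes described here are known from the 2-cell mouse embryo: Duxf3 (the gene of the factor Dux), Zfp352, Usp17lc, Usp17le, Tcstv3, BC147527, Arg2, Abcb5, B020004J07Rik and Sp140. They were chosen by symbol, out of 18821 genes that appear in either of the deposited gene tables. Of them, 9 were listed in the knockdown arm, 9 in the overexpression arm and 8 in both. Zfp352 was not listed in the overexpression table and Sp140 was not listed in the knockdown table. The lowest sum of reads over the 4 libraries of any listed gene was 19 in each table.

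Broad transcription of the mouse embryo's own genome starts at the 2-cell stage. A small, changing minority of embryonic stem (ES) cells in culture passes through a similar state, which is marked by the Zscan4 zinc finger genes and by the endogenous retrovirus MERVL. Dux, a transcription factor with a pair of homeodomains, is encoded by a tandem array of near-identical copies and activates many genes of that state, Zscan4 among them.

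The cells were J1 mouse ES cells (strain label 12910la), kept in 15% serum with 10 ng/ml of the cytokine LIF, and 8 mRNA libraries formed 4 groups of 2. In the first arm, cells labelled wild type received the pSuper puro vector with a random control hairpin (KD control). Cells labelled Zscan4 knocked down received that vector with an shRNA, a short hairpin RNA, against Zscan4 (KD Zscan4). In the second arm, the pCMV-tag2 vector was given to cells labelled wild type as the control (OE control). The same vector with the coding region of Zscan4c was given to cells labelled Zscan4c overexpressed (OE Zscan4). All cells were transfected with 1000 ng of plasmid and selected from 24 h on, with 2 µg/ml puromycin for 7 days in the first arm and 500 µg/ml G418 for 10 days in the second. Single clones were then picked. Nothing in the labels tells if the 2 libraries of a group came from different clones or cultures. The p-values therefore rest on the spread between libraries, which may be technical.

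Each library had 17392177 to 22381633 reads in its gene table. Zscan4c, the targeted gene, read 575 and 566 in KD control against 11.2 and 15.5 in KD Zscan4. It read 60.1 and 75.2 in OE control against 1074 and 981 in OE Zscan4, where reads of the plasmid's coding region can be included. The 9 listed genes whose symbols begin with Zscan4 are Zscan4a to Zscan4f and others, with pseudogenes not left out. Their sum was 30.4-fold lower in KD Zscan4 than in KD control and 14.9-fold higher in OE Zscan4 than in OE control. All 7 ES cell markers were listed in both tables, with sums of 119508 to 120803 in KD control, 122415 to 128199 in KD Zscan4, 109532 to 112982 in OE control and 147006 to 148435 in OE Zscan4. Of 8 fibroblast markers, Dcn and Lum were listed in neither table. Col3a1 and the primitive endoderm marker Foxa2 were not listed in the overexpression table, so these sums cover fewer genes in that arm. Summed primitive endoderm markers were lower in the Zscan4 group of both arms, at 1986 to 2199 in KD control against 216 to 252 in KD Zscan4, and 386 to 393 in OE control against 244 to 260 in OE Zscan4. Summed fibroblast markers were higher in KD Zscan4, at 404 to 455 against 275 to 308 in KD control, and lower in OE Zscan4, at 335 to 363 against 832 to 844 in OE control. Germ cell markers were higher in both, at 2294 to 2508 against 1714 to 1789 and 2513 to 2651 against 2293 to 2419. Whether these other cell types had a part in the values below was not tested.

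Values are normalised read counts per library, as deposited. A fold change is the difference of mean log2(value + 1) between a Zscan4 group and the control of its own arm, a scale which understates the change of low genes. A gene passed when its adjusted p from limma, over all genes of a table, was under 0.05. In bulk RNA, fewer cells in the 2-cell-like state and less RNA per such cell cannot be told apart.

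All 9 measured genes fell in the knockdown, where 18.5% of 17938 genes were called lower and 17.2% higher (35.7% in either direction). Their median log2 fold change was -3.01, between -4.05 for BC147527 and -1.64 for Arg2, beside a median of 0.0078 over all genes. In the overexpression 7 of 9 rose, where 22.3% of 18292 genes were called higher and 22.1% lower (44.3% in either direction). Their median was 2.84, from 0.66 for Sp140 to 4.24 for BC147527, and the median of all genes was -0.0022. The libraries of both groups were separated for 9 of 9 genes in the knockdown, all lower, and for 8 of 9 in the overexpression, all higher. In the tables as a whole, 33.8% of genes were separated with KD Zscan4 lower and 34% with it higher. In the other arm 35.7% were separated with OE Zscan4 higher and 35.5% with it lower.

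**Figure D1:**
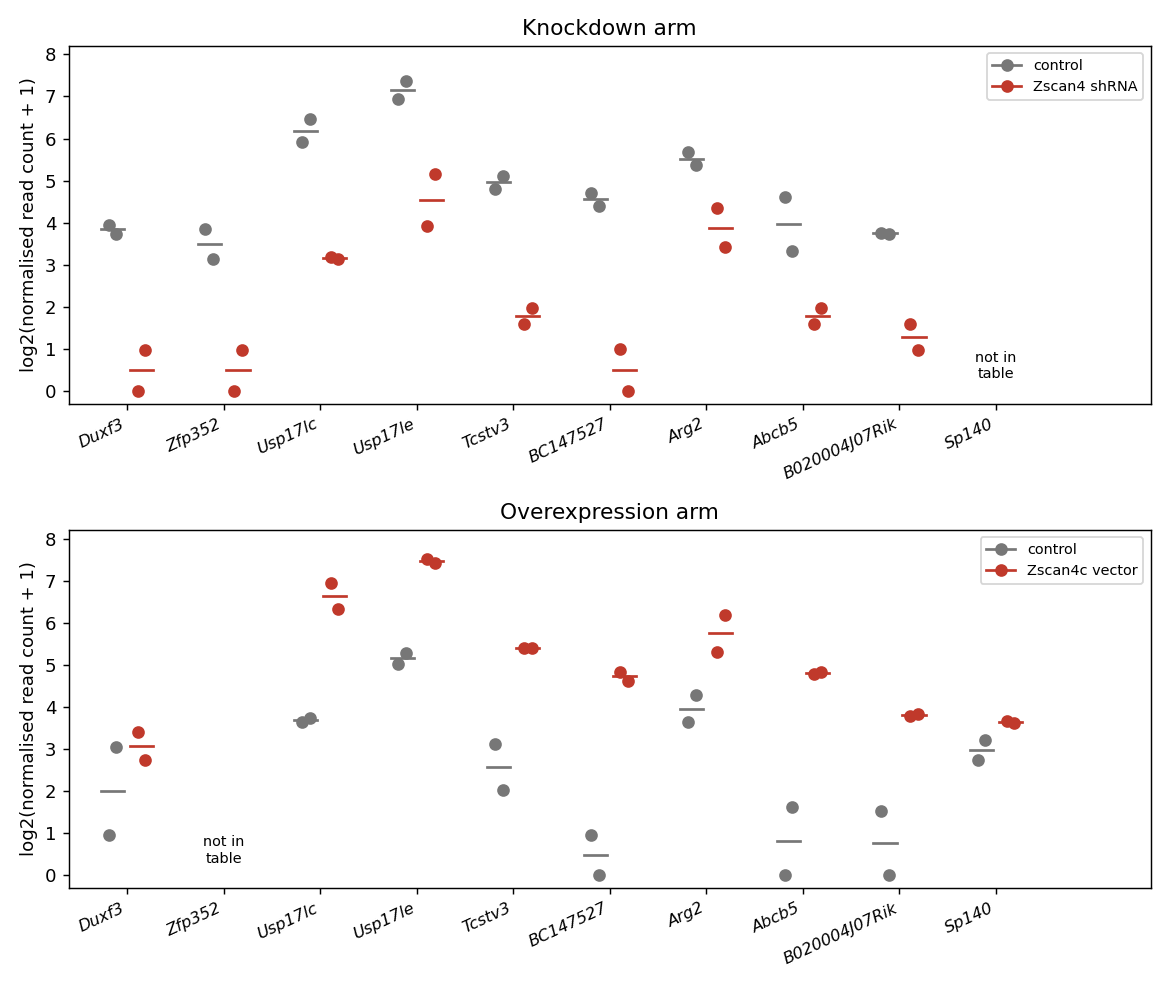
Normalised read counts of the 10 genes on the log2(value + 1) scale, knockdown arm above and overexpression arm below. Each point is a library and each line the mean of 2 libraries, grey for control and red for the Zscan4 group. Every listed gene lies lower in KD Zscan4 than in KD control, and Duxf3 is the gene whose OE groups overlap.

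Duxf3 (ENSMUSG00000075046) lies on the minus strand of chromosome 10 at 58229979 to 58232675 of mm10. It encodes Dux, which stands at the top of the 2-cell program. Its values were 14.3 and 12.4 in KD control and 0 and 0.97 in KD Zscan4. Both knockdown libraries were near 0, with 27 reads in the controls against 1. The ratio of KD Zscan4 to KD control was 0.0369, with a 95% counting interval of 0.00090 to 0.224, and the log2 fold change was -3.35 (SE 0.66, limma adjusted p = 0.0019).

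In the overexpression arm Duxf3 read 0.954 and 7.21 in OE control and 9.57 and 5.64 in OE Zscan4. These groups overlapped, since the second control library lay between both OE Zscan4 libraries. The log2 fold change was 1.06 (SE 0.71) and did not pass (limma adjusted p = 0.245). The summed reads were 8 and 15, a ratio of 1.89 with a 95% counting interval of 0.752 to 5.14, so a difference was not detectable at this depth. The value rested on the control library used: without OE control replicate 2 it was 2.10 and passed (limma adjusted p = 0.0329), and without OE control replicate 1 it was 0.029 and did not (limma adjusted p = 0.978).

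A neighbour in the same array was also listed in the overexpression table. AW822073 (chromosome 10, 58222972 to 58224930, minus strand) lies 5048 bases from Duxf3 and was looked up after the shared sequence was seen. It had 0 and 0 reads in OE control and 10 and 10 in OE Zscan4, normalised values of 10.6 and 9.39, and it passed (limma log2 fold change 3.46, adjusted p = 0.0016). Whether its change differs from that of Duxf3 was not tested. Against 3 reads over the control group, which a count of 0 allows, it was at least 6.72-fold higher. All 20 of its reads came from OE Zscan4, and the lowest sum of any listed gene was 19. AW822073 is thus listed through its high group alone, so it could appear here only as a rise. Its call, this bound and its sum with Duxf3 carry that limit. It was not listed in the knockdown table. Of the 2489 different stretches of 50 bases in Duxf3 transcripts, 32.5% also occur in AW822073, so reads can be assigned to either copy. The sum of both was 0.954 and 7.21 in OE control and 20.2 and 15.03 in OE Zscan4, which do not overlap.

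The RefSeq promoter table holds 7 of the 10 genes, each as 300 bases from 250 before the start to 50 after it. The core of the sequence that Dux binds, GATTNAATC, which reads the same on both strands, was searched in it together with TGCACAC, a sequence bound by Zscan4, on both strands. Their matches do not overlap in these windows. GATTNAATC was found upstream of Duxf3 itself and of B020004J07Rik, named Pramel17 in RefSeq, and in 88 of all 32851 windows (0.268%). TGCACAC was found upstream of Abcb5 and in 4.4% of all windows. The windows with a match are printed 5′ to 3′ (RefSeq, GRCm38.p6), with the match in capitals, which for Abcb5 is the reverse complement of the searched letters. Counted from the RefSeq start of transcription, the match begins at -139 for Duxf3, -123 for B020004J07Rik and -203 for Abcb5. The RefSeq start of Duxf3 differs from the gene position given above. Its window lies wholly upstream of that position, which ends at 58232675, so the match is farther from that end.
Duxf3, chr10:58233040-58233339, minus strand: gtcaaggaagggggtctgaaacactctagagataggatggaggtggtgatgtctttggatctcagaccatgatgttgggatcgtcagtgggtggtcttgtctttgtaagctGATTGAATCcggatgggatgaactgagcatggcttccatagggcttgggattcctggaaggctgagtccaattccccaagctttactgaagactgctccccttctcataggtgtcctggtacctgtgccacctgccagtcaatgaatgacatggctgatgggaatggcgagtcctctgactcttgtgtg
B020004J07Rik, chr4:101843973-101844272, minus strand: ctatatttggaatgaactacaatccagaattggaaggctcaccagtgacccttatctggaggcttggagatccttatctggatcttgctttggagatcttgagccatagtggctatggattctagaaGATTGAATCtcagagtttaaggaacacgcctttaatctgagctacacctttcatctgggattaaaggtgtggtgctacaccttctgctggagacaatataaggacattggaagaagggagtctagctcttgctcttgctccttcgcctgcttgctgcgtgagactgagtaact
Abcb5, chr12:118966372-118966671, minus strand: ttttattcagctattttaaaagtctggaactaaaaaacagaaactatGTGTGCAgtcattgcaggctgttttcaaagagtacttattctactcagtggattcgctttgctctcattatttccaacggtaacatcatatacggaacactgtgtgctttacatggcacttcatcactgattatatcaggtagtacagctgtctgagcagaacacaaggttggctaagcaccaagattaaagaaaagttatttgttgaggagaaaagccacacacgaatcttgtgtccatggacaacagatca

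Zfp352 (ENSMUSG00000070902, chromosome 4, 90218820 to 90225702, plus strand) encodes a zinc finger protein of the 2-cell embryo and is a known target of Dux. It read 13.4 and 7.86 in KD control and 0 and 0.97 in KD Zscan4, from 15, 7, 0 and 1 reads. Both controls lay above both knockdown libraries. The ratio was 0.0453 with a 95% counting interval of 0.0011 to 0.280, and the log2 fold change was -3.01 (SE 0.70, limma adjusted p = 0.0056). The call was lost with DESeq2 (adjusted p = 0.0541) and, in limma, without KD control replicate 1 (log2 fold change -2.66, adjusted p = 0.0592).

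The Zfp352 promoter window is a tandem repeat, which was noticed when the sequence was read. The letters GACAACACA, searched on the printed strand and in capitals here, occur 9 times. They occur at least once in 0.161% of the 32851 windows, and 1 window, this one, holds as many as 9.
Zfp352, chr4:90218570-90218869, plus strand: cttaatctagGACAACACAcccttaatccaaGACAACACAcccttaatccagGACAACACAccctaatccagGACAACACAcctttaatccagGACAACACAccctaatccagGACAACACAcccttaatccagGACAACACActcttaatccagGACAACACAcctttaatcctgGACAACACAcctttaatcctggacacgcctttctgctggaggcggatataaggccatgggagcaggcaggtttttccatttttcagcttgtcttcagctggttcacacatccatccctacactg

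Usp17lc and Usp17le encode deubiquitinases, enzymes that remove ubiquitin from proteins, and belong to a multicopy family on chromosome 7. Usp17lc (ENSMUSG00000058976) lies at 103415072 to 103419880 on the plus strand and Usp17le (ENSMUSG00000043073) at 104768049 to 104777470 on the minus strand, 1348168 bases away. Their coding sequences, of 1638 and 1626 bases, were identical at 93.5% of 1524 aligned bases.

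Usp17lc read 59.1 and 87.6 in KD control against 8.12 and 7.77 in KD Zscan4, and 11.4 and 12.4 in OE control against 122 and 78.9 in OE Zscan4. The knockdown libraries were alike and far under both controls, and the overexpression libraries were far above theirs. The log2 fold change was -3.03 (SE 0.32, limma adjusted p = 1.8e-05) in the knockdown and 2.94 (SE 0.29, limma adjusted p = 4.0e-07) in the overexpression.

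Usp17le was the most abundant of the 10 genes per length, with RPKM, the CPM per 1000 bases of exon, of 3.68 ± 0.76 in KD control and 4.24 ± 0.21 in OE Zscan4 (SD, n = 2). Its normalised values were 122 and 164 in KD control and 14.2 and 34.9 in KD Zscan4. In the other arm they were 31.5 and 38.1 in OE control and 181 and 171 in OE Zscan4. No control overlapped with its Zscan4 group, and KD Zscan4 replicate 2 stood at over 2 times replicate 1. The log2 fold changes were -2.61 (SE 0.34, limma adjusted p = 9.5e-05) and 2.31 (SE 0.19, limma adjusted p = 5.8e-08). The first was -1.99 without KD Zscan4 replicate 1 and -3.23 without KD Zscan4 replicate 2.

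Tcstv3 and BC147527 belong to the 2-cell-stage variable group, small genes of chromosome 13 that are transcribed in the 2-cell embryo. Tcstv3 (ENSMUSG00000095821) spans 120316878 to 120318178 and BC147527 (ENSMUSG00000094796) 120300392 to 120308779, both on the plus strand and 8098 bases apart. Their coding sequences, of 510 and 504 bases, were identical at 92.2% of 501 aligned bases. The first 90 coding bases of each are printed from the GENCODE M21 transcripts (GRCm38) to show how close these neighbours are, with the 7 bases that differ in capitals.
Tcstv3, coding bases 1 to 90: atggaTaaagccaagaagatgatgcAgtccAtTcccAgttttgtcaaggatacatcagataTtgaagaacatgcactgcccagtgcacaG
BC147527, coding bases 1 to 90: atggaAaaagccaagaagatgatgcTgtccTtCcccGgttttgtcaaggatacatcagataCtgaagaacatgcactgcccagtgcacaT

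Tcstv3 read 26.9 and 33.7 in KD control against 2.03 and 2.91 in KD Zscan4, and 7.63 and 3.09 in OE control against 41.5 and 41.3 in OE Zscan4. Each pair of groups was clearly apart. The log2 fold change was -3.18 (SE 0.45, limma adjusted p = 1.9e-04) in the knockdown and 2.84 (SE 0.43, limma adjusted p = 4.4e-05) in the overexpression.

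BC147527 had few reads in its low groups. Its reads were 28 and 18 in KD control and 1 and 0 in KD Zscan4, and 1 and 0 in OE control and 26 and 25 in OE Zscan4. The low groups of both arms were thus at 1 read each. The high groups were at similar normalised values, 22.6 ± 3.44 in KD control and 25.6 ± 2.94 in OE Zscan4 (SD, n = 2), but each arm was normalised separately. The ratio to the control was 0.0216 (95% counting interval 0.00054 to 0.127) in the knockdown and 51.4 (8.81 to 2068) in the overexpression. The log2 fold changes were -4.05 (SE 0.60, limma adjusted p = 2.8e-04) and 4.24 (SE 0.62, limma adjusted p = 3.0e-05). They were the largest of the 10 genes on this scale, but with a pseudocount of 5 Usp17lc was larger in both arms (-2.57 against -2.33, and 2.61 against 2.48). Without OE control replicate 2, Abcb5 (4.8) was larger than BC147527 (3.76) in the overexpression. Without KD Zscan4 replicate 2, the fall of Duxf3 (-3.84) was larger than that of BC147527 (-3.55) in the knockdown.

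Arg2 (ENSMUSG00000021125, chromosome 12, 79130777 to 79156301, plus strand) encodes the mitochondrial arginase, which splits arginine into ornithine and urea. It read 50.2 and 40.4 in KD control against 19.3 and 9.71 in KD Zscan4, and 11.4 and 18.5 in OE control against 38.3 and 72.3 in OE Zscan4. The groups did not overlap, but the low groups were not near 0. The log2 fold change was -1.64 (SE 0.35, limma adjusted p = 0.0034) in the knockdown and 1.78 (SE 0.35, limma adjusted p = 5.1e-04) in the overexpression. The 3′ end of Arg2 overlaps Vti1b, a gene of vesicle transport on the opposite strand, and whether counting used strand is not given in the sources used here. Vti1b was far more abundant, at 844 to 1120 in the 8 libraries, and passed in neither comparison (log2 fold changes -0.03 and -0.10, limma adjusted p = 0.739 and 0.433).

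Abcb5 (ENSMUSG00000072791, chromosome 12, 118867824 to 118966421, minus strand) encodes a membrane transporter of the ATP-binding cassette family. It read 23.3 and 8.98 in KD control against 2.03 and 2.91 in KD Zscan4. The first control stood well above the second, and both above the knockdown libraries. The log2 fold change was -2.18 (SE 0.58, limma adjusted p = 0.011), and without KD control replicate 1 it was -1.54 and did not pass (limma adjusted p = 0.158). Without KD control replicate 2 it was -2.82. In the other arm Abcb5 read 0 and 2.06 in OE control against 26.6 and 27.2 in OE Zscan4. With 2 reads against 54, the ratio was 27.2 (95% counting interval 7.17 to 230), and the log2 fold change was 4.0 (SE 0.62, limma adjusted p = 5.9e-05). It was 3.19 without OE control replicate 1 and 4.8 without OE control replicate 2.

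B020004J07Rik (ENSMUSG00000035201, chromosome 4, 101834969 to 101844023, minus strand) is a gene of the PRAME-like family, whose members are expressed in oocytes and early embryos. It read 12.5 and 12.4 in KD control against 2.03 and 0.97 in KD Zscan4, and 1.91 and 0 in OE control against 12.8 and 13.2 in OE Zscan4. The high groups of both arms were at nearly the same value, though each arm was normalised separately. The low groups were at 2 or fewer reads per library. The ratio to the control was 0.119 (95% counting interval 0.0231 to 0.392) in the knockdown, from 25 and 3 reads, and 13.1 (3.28 to 114) in the overexpression, from 2 and 26. The log2 fold changes were -2.46 (SE 0.58, limma adjusted p = 0.0058) and 3.03 (SE 0.71, limma adjusted p = 0.0021). The second was 3.80 without OE control replicate 1 and 2.26 without OE control replicate 2. The knockdown call was lost with DESeq2 (adjusted p = 0.0575).

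Sp140 (ENSMUSG00000070031, chromosome 1, 85600378 to 85645037, plus strand) encodes a protein of nuclear bodies with domains that read chromatin. It read 5.72 and 8.24 in OE control and 11.7 and 11.3 in OE Zscan4. Both OE Zscan4 libraries were above both controls, but the difference was small for so few reads, 14 against 23. The log2 fold change was 0.66 (SE 0.49) and did not pass (limma adjusted p = 0.290). The ratio of summed reads was 1.65 with a 95% counting interval of 0.816 to 3.48. The antisense gene Gm17017, which overlaps it, holds 20.6% of its 50-base stretches.

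**Figure D2:**
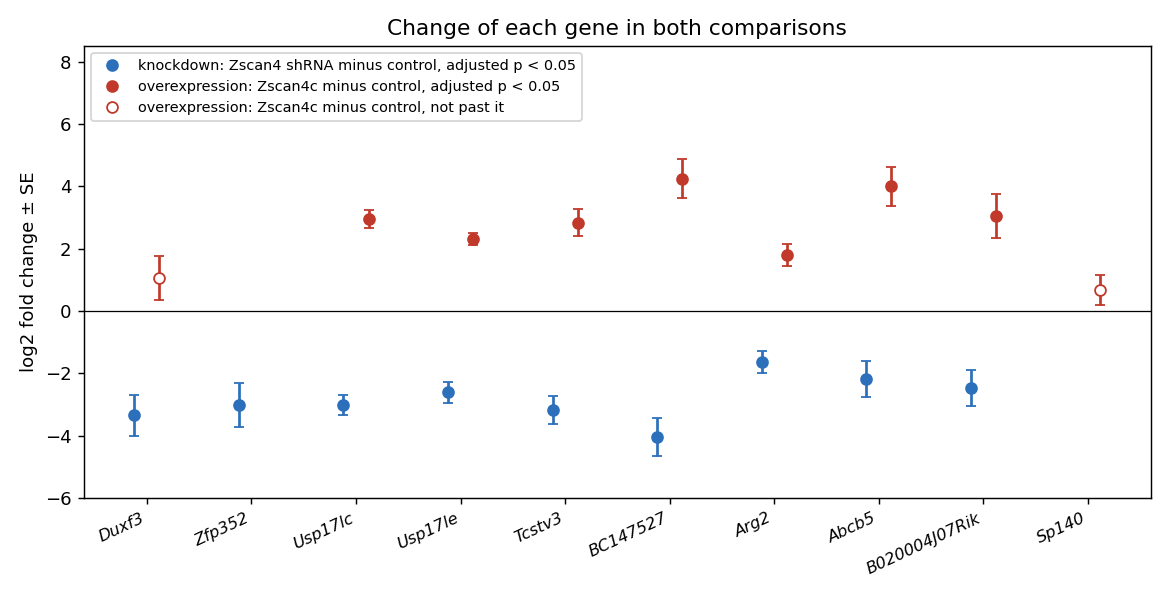
Log2 fold change of each gene against the control of its own arm, with its standard error from limma, blue for the knockdown and red for the overexpression. Filled points passed at an adjusted p under 0.05, and the open points, Duxf3 at 1.06 and Sp140 at 0.66 in the overexpression, did not.

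The difference between the effects was tested directly in the 8 genes of both tables, by limma on all 8 libraries. All 8 passed, with the overexpression effect above the knockdown effect, where 22.9% of 17409 genes were called in that direction and 21.8% in the other (44.7% in all). The differences ran from 3.43 (SE 0.54) for Arg2 to 8.29 (SE 0.84) for BC147527, with a median of 5.73. The treatments are opposite, so a gene that falls in the knockdown can pass here without an overexpression effect. A call therefore does not show that both effects are present. Listing through a high group favours the called direction here too. Duxf3 was at 4.41 (SE 1.01, limma adjusted p = 0.0020), from -3.35 in the knockdown and 1.06 in the overexpression, which alone did not pass. Its difference was 3.38 without OE control replicate 1 and 5.45 without OE control replicate 2. Leaving out those libraries in the same order gave 5.37 and 6.98 for Abcb5, and 6.26 and 4.72 for B020004J07Rik. Abcb5 was at 5.53 and 6.81 without KD control replicate 1 and 2, and Usp17le at 4.30 and 5.54 without KD Zscan4 replicate 1 and 2.

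The levels of the 4 groups were set side by side as CPM, the reads scaled to 1e6 per library, of each library's gene table, recomputed from the recovered reads because the arms were normalised separately. Vector, drug and selection time differ between the arms too, and cannot be told apart from a difference between the controls, so no test was made across arms. Of the 8 genes in both tables, KD control and OE Zscan4 were by mean the highest groups for all 8, and OE control and KD Zscan4 the lowest. Usp17lc, for example, was at 4.83 ± 1.52 CPM in OE Zscan4, 3.76 ± 1.03 in KD control, 0.63 ± 0.05 in OE control and 0.405 ± 0.0060 in KD Zscan4 (SD, n = 2). For Duxf3 the libraries of OE Zscan4 (0.462 and 0.268 CPM) overlapped with those of OE control (0.049 and 0.389).

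The order of the 2 highest groups was not the same for every gene. Duxf3 was highest in KD control, at 0.68 ± 0.07 CPM, and its libraries there lay above those of OE Zscan4, at 0.36 ± 0.14 (SD, n = 2). Tcstv3 was higher in OE Zscan4, at 1.98 ± 0.02 CPM against 1.55 ± 0.24 in KD control (SD, n = 2). Abcb5 was likewise at 1.29 ± 0.0093 against 0.83 ± 0.52. B020004J07Rik was at 0.64 ± 0.0077 in KD control and 0.62 ± 0.0070 in OE Zscan4, a small difference although the libraries did not overlap. For Usp17lc, Usp17le, BC147527 and Arg2 the libraries of these groups overlapped. The 2 lowest groups were apart for Usp17lc and Tcstv3, with OE control above KD Zscan4, and overlapped for the other 6.

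Several of these genes share transcript sequence with others, which bears on how far single values can be trusted. The share of a gene's 50-base stretches found also in a GENCODE transcript of another gene, on either strand, was 57.3% for Sp140, 47.0% for Duxf3 and 44.7% for Usp17lc. It was 31.4% for Tcstv3, 29.8% for Usp17le and 21.2% for Arg2. Abcb5 shared none of its 4375 stretches, so its reads have no other annotated transcript to go to at that length. For Usp17lc the main partner was Usp17ld, which holds 41.5% of its stretches. For Arg2 it was Vti1b, with 17.1%.

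**Figure D3:**
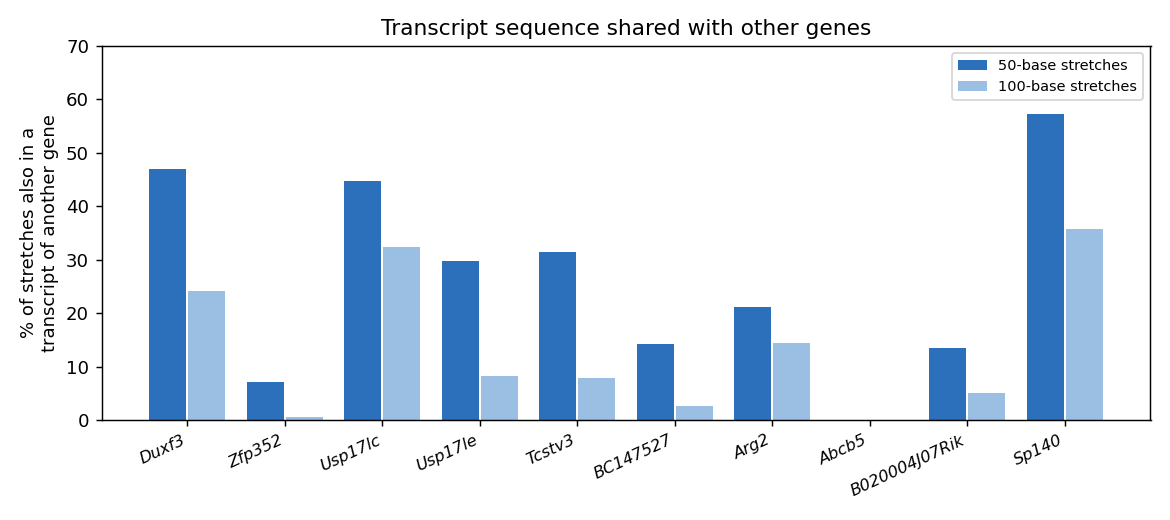
Percentage of the different 50-base (dark) and 100-base (light) stretches in each gene's transcripts that also occur in a transcript of another gene. The bars run from 57.3% for Sp140 to 0 for Abcb5 at 50 bases.

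Relatives of the 10 genes mostly moved with them. The list holds 16 relatives. Of 9 measured in the knockdown, 8 fell and none rose, beside 18.5% of all genes lower. Of 11 measured in the overexpression, 8 rose and none fell, beside 22.3% of all genes higher. Some relatives were listed through their high group alone. Gm20767 read 1.91 and 4.12 in OE control against 22.3 and 13.2 in OE Zscan4. AF067061 read 20.6 and 12.4 in KD control against 5.07 and 0.97 in KD Zscan4. Listing favours the direction seen for such relatives, so the share of all genes is not a like comparison. Some relatives can share reads with the 10 genes, as Usp17ld holds 41.5% of the 50-base stretches of Usp17lc. The deubiquitinase copies Usp17ld (log2 fold change -3.08 and 3.15), Usp17la (-2.83 and 2.56) and Usp17lb (-1.94 and 2.41) passed in both arms. AF067061, a neighbour in the 2-cell-stage variable group, was at -2.30 and 2.91 and passed in both. Pramef25, of the PRAME family, rose from 6.35 ± 3.15 to 51.6 ± 5.21 (SD, n = 2) in the overexpression and did not pass in the knockdown (-0.94). The transporter genes Abcb1a (-0.68) and Abcb1b (-0.45) passed as lower in the knockdown. In the overexpression Abcb1a (0.55), Abcb1b (0.18) and Abcb4 (-1.40) did not pass. DESeq2 called 5 relatives lower in the knockdown, and without OE Zscan4 replicate 1 limma called 5 higher in the overexpression. AF067061 lost its call with DESeq2 in the knockdown and without KD control replicate 1 or OE Zscan4 replicate 1.

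Other 2-cell genes, some of which are also among these relatives, moved with the 10. Of 25 measured, 20 fell in the knockdown and none rose, with a median log2 fold change of -2.48, beside 18.5% of all genes lower. Of 29, 28 rose in the overexpression and none fell, with a median of 3.32, beside 22.3% of all genes higher. The list holds 35 genes, and those absent from a table are not counted. Some are listed through their high group alone. Tdpoz3 had a mean of 0.477 in OE control and 14.4 in OE Zscan4, and Gm2022 18.3 in KD control and 2.93 in KD Zscan4. For such genes listing favours the direction seen, so the share of all genes is not a like comparison. The measured genes include 6 Zscan4 genes, the family that the hairpin targets and of which the plasmid supplies Zscan4c alone. Without them 14 of 19 fell (median -2.07) and 22 of 23 rose (median 2.91). The 5 without a call in the knockdown were Trim43a (-0.72), Trim43b (-0.34), Pramef25 (-0.94), Gm2035 (-1.12) and Gm2056 (-1.28), and Trim43c (0.65) had none in the overexpression. The largest called changes were Zscan4a (-6.11), Zscan4c (-5.33), Zscan4f (-5.27) and Zscan4d (-4.66) in the knockdown, and Zscan4e (3.96), Zscan4c (3.91), Zscan4b (3.91) and Gm21304 (3.89) in the overexpression. The retrovirus of this state followed, as MERVL-int was 4.49-fold lower in KD Zscan4 than in KD control and 8.92-fold higher in OE Zscan4 than in OE control. Its long terminal repeat MT2_Mm was 3.32-fold lower and 5.46-fold higher.

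Activators of Dux moved with it in the knockdown. Dppa2 and Dppa4 encode chromatin proteins that bind and switch on the Dux promoter, Nelfa a subunit of the negative elongation factor, and Trp53 the p53 protein. All 4 fell in the knockdown, with Dppa2 at -0.73, Nelfa at -0.53, Dppa4 at -0.29 and Trp53 at -0.23 on the log2 scale, beside 18.5% of all genes lower. Dppa2 went from 3864 ± 267 to 2327 ± 21.9 (SD, n = 2). In the overexpression Dppa2 (1.55), Dppa4 (0.61) and Trp53 (0.36) rose, Dppa2 from 994 ± 5.34 to 2916 ± 143, and Nelfa did not pass (0.07), where 22.3% of all genes were higher. The Trp53 call in the knockdown did not hold in limma when KD control replicate 2 was left out (adjusted p = 0.072).

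Of 18 repressors of Dux and the 2-cell program, 3 rose and 5 fell in the knockdown with a median of -0.03, beside 17.2% of all genes higher and 18.5% lower. Lin28a, an RNA-binding protein gene, fell by 1.06 and the histone methyltransferase gene Ehmt2 by 0.41 on the log2 scale. The nucleolin gene Ncl rose by 0.66, on chromosome 1, where the median over 703 coding genes of mean value 20 or more was 0.56. In the overexpression 11 rose and Chaf1b (-0.26) fell, with a median of 0.27, beside 22.3% of all genes higher and 22.1% lower. Rif1 (0.95), Trim28, a corepressor gene (0.80), and Ncl (0.68) were the largest rises after Duxbl1. Duxbl1, which encodes a relative of Dux, was at -1.19 and 1.30 and passed in both arms with limma (adjusted p = 0.043 in each), but not with DESeq2 (adjusted p = 0.271 and 0.242). Its calls also failed without KD control replicate 1 or 2, KD Zscan4 replicate 1, OE control replicate 2, or either OE Zscan4 replicate.

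The counts of repressors depended on single libraries. In the knockdown limma called 3 lower without KD control replicate 1, 1 higher and 3 lower without KD control replicate 2, and 6 higher without KD Zscan4 replicate 1. In the overexpression it called 7 higher and none lower without OE Zscan4 replicate 1, none lower without OE Zscan4 replicate 2, and 2 lower with TMM scaling.

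Genes of arginine and polyamine metabolism, the pathway of Arg2, were called in both directions, as were genes in the tables as a whole. Of 9 measured, 3 rose and 3 fell in the knockdown (17.2% and 18.5% of all genes), and 5 rose and 3 fell in the overexpression (22.3% and 22.1%). Odc1, the ornithine decarboxylase that starts polyamine synthesis, fell by 0.69 in the knockdown and rose by 0.92 in the overexpression on the log2 scale. The spermidine synthase gene Srm moved alike (-0.52 and 0.66). Sat1, which acetylates polyamines, fell in both (-0.70 and -0.62), and Sms, the spermine synthase gene, rose in both (0.46 and 0.70). Oat, which converts ornithine in mitochondria, was at 0.50 and -0.43. Arg1, the arginase of the liver, was listed in neither table.

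**Figure D4:**
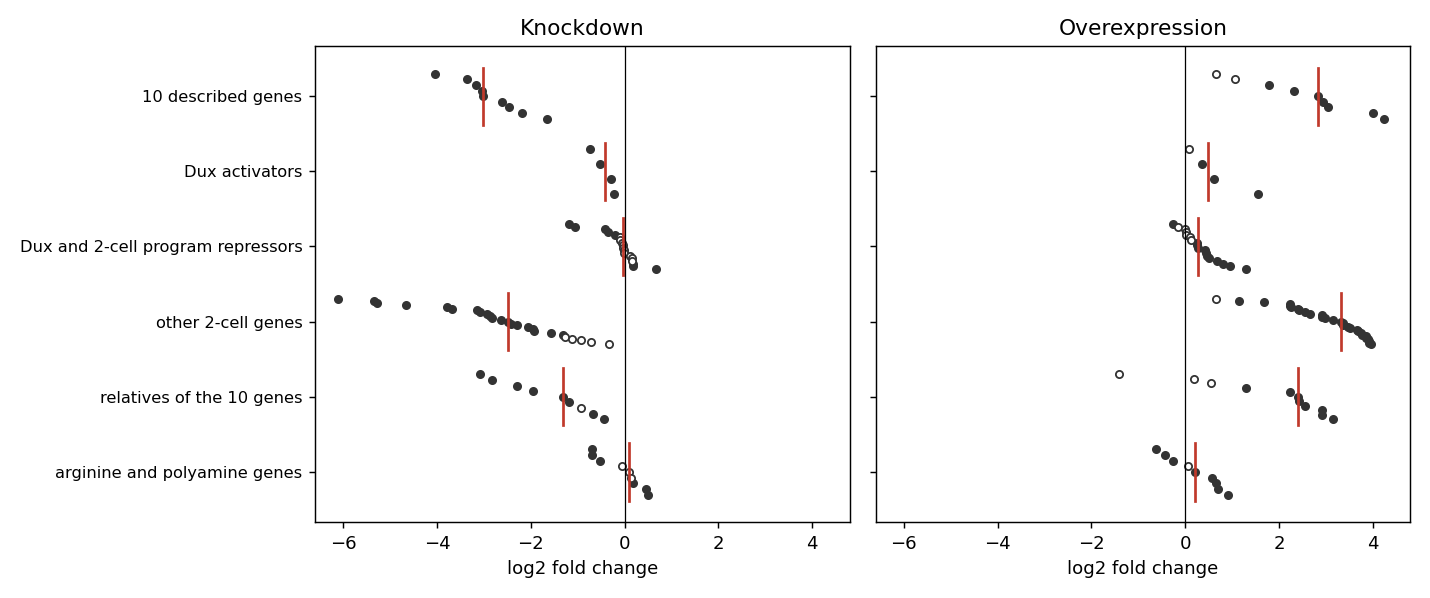
Log2 fold changes in the knockdown (left) and the overexpression (right) of the 10 genes and of each gene list, 1 point per listed gene, filled where the adjusted p was under 0.05, with the median as a red line. The 10 genes (medians -3.01 and 2.84) and the other 2-cell genes (-2.48 and 3.32) lie far from 0 on opposite sides. The relatives lie on the same sides (-1.31 and 2.41), and the remaining lists lie nearer to 0.

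The genes closest in pattern to the 10 were sought among 14195 other genes with a mean of at least 20 in both tables. The measure was the root mean square difference, over 8 libraries, between log2(value + 1) values centred within each arm and the median profile of the 8 genes in both tables. Gm21761 was closest (0.17), followed by Usp17la (0.24), Gm8994 (0.24), Gm7957 (0.26) and Gm11543 (0.26). Gm21761 lies on chromosome 13 and holds 10.1% of the 50-base stretches of Tcstv3, so its values and those of Tcstv3 can share reads. Its log2 fold changes were -2.70 and 2.73 in the arms, values that the choice by pattern largely fixes. Usp17la likewise holds 15.3% of the 50-base stretches of Usp17le. Of the 8 genes that define the profile, Usp17lc was nearest to it (0.19) and Duxf3 farthest (0.84).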

How the data were processed

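mRNA of J1 ES cells was profiled in 8 libraries. Per the submitters' processing notes, reads were processed with cutadapt, HISAT2 (mm10), featureCounts and DESeq2, with no versions, and the filter on low genes is not given in the sources used here. The deposited tables hold normalised signal, gene read counts divided by 1 factor per library. Undoing that division gave whole reads, to within 0.01, for 100% of the values.

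Groups came from the sample titles. limma-trend (limma 3.58.1, R 4.3.3) was fitted to log2(value + 1), 2 against 2 libraries, two-sided, with Benjamini-Hochberg adjustment over each table, no filter and a false discovery rate of 0.05. edgeR 4.0.16, DESeq2 1.42.0 and limma-voom on recovered reads were alternatives. The fit was tested on simulated data. Counting intervals are exact, conditional on the summed reads, and cover counting error only. Gene symbols and positions are from GENCODE M21, with symbols for 17913 of 17938 and 18259 of 18292 genes.

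The 10 genes, the 5 lists and the motifs were chosen with earlier results of these data known. Named by rule were the 10 genes, up to 4 called genes per list with the largest change, and the 5 genes closest in pattern. AW822073, Vti1b and genes named for not passing or for another reason were chosen after their values were seen, as was the count of 2-cell genes without Zscan4 genes.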

Additional observations from a re-analysis of the deposited data

How the results depend on the processing

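All 9 knockdown calls among the 10 genes held with pseudocounts of 0.5 and 5, a mean of at least 5, TMM scaling, edgeR, limma-voom and a replicate block. DESeq2 and the fit without KD control replicate 1 kept 7 each, and leaving out each library in turn gave 7 to 9. In the overexpression 7 were called under every alternative but 1, which gave 8, and the difference of the arms was called for 8 of 8 under all. No alternative changed the direction of any of the 10 genes, but sizes moved by far more than 1.5 times where reads were few. Log2 fold changes ran from a pseudocount of 5 to DESeq2 as -1.49 to -4.43 for Zfp352 and -1.75 to -4.75 for Duxf3 in the knockdown, and 2.48 to 5.69 for BC147527 in the overexpression. Subtracting the median of a gene's own chromosome moved no fold change by as much as its standard error.

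Among all genes, DESeq2 called 4125 in the knockdown, each also among the 6403 by limma, and 5638 against 8111 in the overexpression. edgeR called 6483 and 8185. Leaving out a library gave 4416 to 6087, 5964 to 7975 and, for the difference, 6619 to 7397 against 7787. The replicate numbers do not pair the libraries: deviations of same-numbered libraries correlated at -0.059 and -0.039. With a replicate block 6924, 8188 and 7388 genes were called, and 9, 7 and 8 of the 10 genes. The cause of these differences was not tested. Depth limits Duxf3, Zfp352, Sp140 and the low groups, which hold few reads.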

Other observations

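The Dux relatives on chromosome 14 are similar in sequence, and how the counting divided reads between them was not tested. Duxbl2 read 19.7 and 20.2 in KD control against 10.1 and 8.74 in KD Zscan4, and 8.58 and 7.21 in OE control against 14.9 and 13.2 in OE Zscan4. Duxbl3 read 18.8 and 20.2 against 10.1 and 7.77, and 6.67 and 6.18 against 15.9 and 13.2. In both genes KD Zscan4 lay below KD control and OE Zscan4 above OE control, without overlap.

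Gm12794, whose transcripts hold 3.17% of the 50-base stretches of B020004J07Rik, read 47.5 and 44.9 in KD control against 4.06 and 7.77 in KD Zscan4, and 5.72 and 3.09 in OE control against 81.9 and 55.4 in OE Zscan4. The promoter window of Usp17lc holds the letters TATAAA, searched on the printed strand, as do 8.32% of all windows. That window, from 103416446 to 103416745, lies inside the gene position given above, which starts at 103415072.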
